A study of Mus musculus with 4 samples.

Results

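Chemokines and their receptors were followed through ATAC-Seq peaks of sorted heart nuclei. The genes were chosen by symbol: all protein-coding genes of the GENCODE mouse annotation named Ccl, Cxcl, Xcl, Ccr, Cxcr, Xcr or Ackr with a number, together with Cx3cl1 and Cx3cr1. This gave 59 of 21755 protein-coding genes, of which 37 encode ligands and 22 encode receptors. The rule uses gene symbols alone.

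The nuclei came from whole hearts of male C57BL/6 mice, 8 to 12 weeks old, carrying NuTRAP, a reporter that labels nuclei with GFP after Cre recombination, and Cdh5-Cre, which is driven by the promoter of the endothelial cadherin gene. Both populations shared this genotype: GFP+ nuclei (endothelial) and GFP- nuclei (all other cells of the heart) were separated by flow cytometry. There were 2 samples per population, of 100 to 50000 nuclei each. The labels do not say whether these samples came from separate animals. ATAC-Seq reads out where the transposase Tn5 can reach the DNA, and the authors called 1 list of peaks per population from both samples together, with 78912 peaks for GFP- and 65008 for GFP+ nuclei. Since no value per sample is at hand, no difference was tested and every value is that of a pooled list.

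Chemokines are small secreted proteins that guide the migration of leukocytes. They are displayed on the endothelial surface by heparan sulfate and are read by G protein-coupled receptors. The names follow the spacing of the first cysteines (CC, CXC, CX3C or XC), and atypical receptors bind chemokines without the usual G protein signal and limit or shape their gradients. Many inflammatory chemokine genes lie in clusters of close relatives and are induced through NF-kB, whereas a few, such as Cxcl12, serve homeostasis and vessel development.

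Peaks were compared by rank. Each peak has an area, the -log10 p that the authors' peak caller summed over its length. The area thus grows with significance and with length, and it is not a read count. Each peak was placed by area within its own list, from 0 for the smallest to 100 for the largest. A start peak overlaps an annotated transcript start of the gene, widened by 250 bp on each side. Where several did, the one of highest rank was used. A gene without a start peak in a list takes rank 0 there, and a difference of more than 20 points was counted as a difference in rank. The chosen genes were sparsely accessible at their starts: 16 of 59 had a start peak in the GFP- list (27.1%, against 61.8% of all protein-coding genes) and 13 of 59 in the GFP+ list (22.0%, against 59.8%). All 13 were also among the 16 (58.8% of all genes had a peak in both lists). The other 3, which include Ackr4 and Cxcl14, had one only in GFP- nuclei (2.95% of all genes). No chemokine or receptor gene had a start peak only in GFP+ nuclei (0.915% of all genes).

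**Figure D1:**
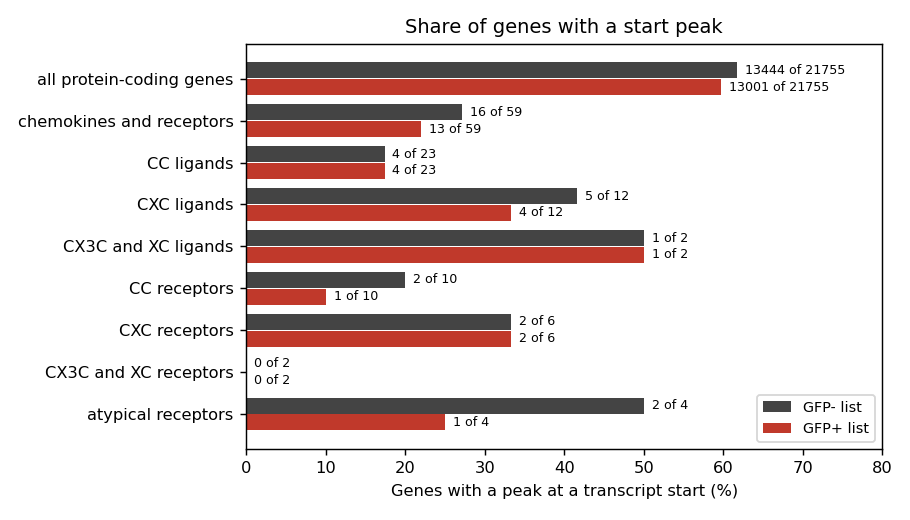
Share of genes with a peak at a transcript start, in percent, for all protein-coding genes, for the 59 chemokine and receptor genes and for their groups, with bars for the GFP- (grey) and GFP+ (red) lists and the counts beside them. All groups lie below the 61.8% and 59.8% of all protein-coding genes, from 0 of 2 for the CX3C and XC receptors to 5 of 12 for the CXC ligands and 1 of 2 for the CX3C and XC ligands.

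Among the 16 genes with a start peak in either list (62.7% of all genes had one), the ranks were lower in GFP+ nuclei for 12 and higher for 4 (71.4% of all genes with a start peak ranked lower). The median start rank of the 16 genes was 74.7 in GFP- and 50.5 in GFP+ nuclei, beside 90.3 and 88.6 over all 13643 genes with a start peak. The chosen genes thus sat lower in both lists, and the part of this in the differences that follow was not tested. The median difference, GFP+ minus GFP-, was -13.1 points, beside -0.81 points over all 13643 genes. It was -8.58 points over the 13 genes with a peak in both lists, and -27.8 points with peaks whose summit had a -log10 p of at least 5. 7 of 16 ranked more than 20 points lower in GFP+ nuclei (7.33% of all genes): Ackr4, Ccl2, Ccl7, Ccr10, Cxcl1, Cxcl14 and Cxcl16. With the GFP- list shortened to the length of the GFP+ list, these were 4 of 15 (5.34% of all genes). 1 of 16, Cxcr3, ranked more than 20 points higher (1.94% of all genes). Of the other 8 genes, Ackr3, Ccl25, Cx3cl1 and Cxcl12 had start peaks in both lists that differed by less than 5 points.

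**Figure D2:**
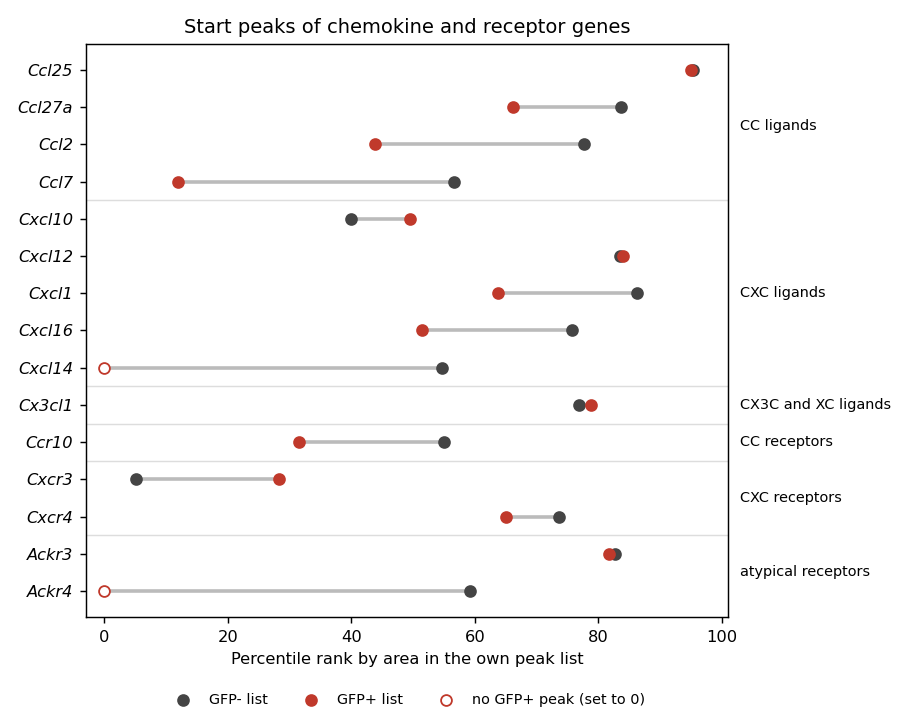
Percentile rank of the start peak by area within its own list, for the 15 chemokine and receptor genes with a start rank of at least 5 in either list, with grey points for GFP- and red points for GFP+ nuclei and an open red point at 0 where the GFP+ list has no peak. Points nearly coincide for Ccl25, Cxcl12, Cx3cl1 and Ackr3, whereas Ccl2, Ccl7, Cxcl1, Cxcl14, Cxcl16, Ccr10 and Ackr4 lie more than 20 points lower in GFP+ nuclei.

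The sort was checked against marker genes of cardiac cell types. Of 6 endothelial markers, 4 had a start peak in GFP- and 6 in GFP+ nuclei, with Erg and Pecam1 found only in GFP+ nuclei and Cdh5 at rank 18.0 in GFP- and 85.3 in GFP+ nuclei. Tek went the other way, with 81.1 and 54.1. Start peaks were present at 5 of 5 fibroblast markers in GFP- and 3 of 5 in GFP+ nuclei, and at 5 of 5 and 2 of 5 pericyte and smooth muscle markers. The cardiomyocyte markers had them at 4 of 4 genes in both. Of 4 lymphatic endothelial markers, 4 had a start peak in GFP- and 3 in GFP+ nuclei: Flt4 had ranks of 58.8 in GFP- and 83.3 in GFP+ nuclei, Prox1 86.5 and 82.7, Lyve1 36.8 and 25.8, and Pdpn 37.0 in GFP- nuclei alone. Of 3 mesothelial markers only Wt1 had a start peak, at 61.8 and 83.0. Leukocytes are the main users of chemokine receptors. The pan-leukocyte gene Ptprc, all 6 lymphocyte and all 3 neutrophil markers had no start peak in either list, and of 6 macrophage markers only Cd68 had one, at rank 31.8 in GFP- and 16.8 in GFP+ nuclei. In such bulk lists, fewer cells of a type and less accessibility per cell cannot be told apart.

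Among the CC ligands, 4 of 23 genes had a start peak in each list (17.4%, against 61.8% and 59.8% of all genes). Ccl2, which attracts monocytes through CCR2, had a GFP- peak of 554 bp at chr11:82035145-82035698 (mm10) with rank 77.6. The GFP+ peak at the same start, chr11:82035230-82035671, was 442 bp long with rank 43.8. Its neighbour Ccl7, another monocyte attractant, had ranks of 56.6 in GFP- nuclei (chr11:82045480-82045833, 354 bp) and 11.9 in GFP+ nuclei (chr11:82045501-82045808, 308 bp). Both monocyte attractants thus ranked lower in endothelial nuclei, with differences (GFP+ minus GFP-) of -33.8 points for Ccl2 and -44.8 points for Ccl7.

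Ccl25, the ligand of CCR9, had the highest start rank of the family, with 95.4 in GFP- nuclei (chr8:4324478-4325732, 1255 bp) and 95.1 in GFP+ nuclei (chr8:4324514-4325745, 1232 bp). This peak also covered the start of Elavl1, which encodes a widely expressed RNA-binding protein and is transcribed in the other direction, so that its area cannot be assigned to Ccl25 alone. Ccl27a, related to the skin chemokine that CCR10 binds, had ranks of 83.7 in GFP- nuclei (chr4:41773487-41774630, 1144 bp) and 66.1 in GFP+ nuclei (chr4:41774071-41774517, 447 bp). The GFP- peak also spanned another GFP+ peak, of rank 58.6 (chr4:41773521-41773931, 411 bp), so that the GFP+ list splits this site. The difference was -17.6 points by area and 5.58 points by area per bp. The start sequence of Ccl27a was largely repeated elsewhere, since 76.6% of the 32-base words around its starts occurred more than once in the genome. The authors removed reads of low mapping quality, which takes reads away from such sequence.

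The other 19 CC ligands had no start peak in either list: Ccl1, Ccl3, Ccl4, Ccl5, Ccl6, Ccl8, Ccl9, Ccl11, Ccl12, Ccl17, Ccl19, Ccl20, Ccl21a, Ccl21b, Ccl22, Ccl24, Ccl26, Ccl27b and Ccl28. For Ccl19, Ccl21a, Ccl21b and Ccl27b, 100% of the start words were repeated, so that an absent peak there says little. This was not general: 52 of 59 genes had fewer than 10% repeated words, and among the 43 genes without a start peak these were 37. Cxcl2 and Cxcl3, which are close relatives, had 26.8% each.

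Of the 12 CXC ligands, 5 had a start peak in either list (41.7%, against 62.7% of all genes). Cxcl12, the homeostatic ligand of CXCR4 and ACKR3, had nearly the same rank in both populations: 83.5 in GFP- nuclei (chr6:117167619-117169415, 1797 bp) and 84.0 in GFP+ nuclei (chr6:117168092-117169611, 1520 bp). These were the longest start peaks of the family. Cxcl14, a homeostatic ligand of epithelia and stroma, had a start peak of 508 bp with rank 54.8 in GFP- nuclei (chr13:56296159-56296666) and none in GFP+ nuclei. Both starts are rich in CpG, as were only 5 of the 59 starts (8.47%, beside 47.9% of all protein-coding genes): Ccl25, Ccr9, Cxcl12, Cxcl14 and Cxcr4. A start was called CpG-rich where the 501 bases around it had an observed over expected CpG ratio above 0.6 and more than 50% G and C. The 250 bases before the RefSeq start of Cxcl12 (chr6:117168285-117168534, plus strand) and of Cxcl14 (chr13:56296552-56296801, minus strand) are shown 5′ to 3′ on GRCm38.p6, the build that mm10 names, because these starts share a sequence class and differ in rank. Capitals mark the CpG dinucleotides, 14 in Cxcl12 and 16 in Cxcl14.
Cxcl12: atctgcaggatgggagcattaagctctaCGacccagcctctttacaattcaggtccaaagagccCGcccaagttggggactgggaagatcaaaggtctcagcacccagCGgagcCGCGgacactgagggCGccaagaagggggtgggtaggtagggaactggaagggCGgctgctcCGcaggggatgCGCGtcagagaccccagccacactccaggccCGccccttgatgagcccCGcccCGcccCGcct
Cxcl14: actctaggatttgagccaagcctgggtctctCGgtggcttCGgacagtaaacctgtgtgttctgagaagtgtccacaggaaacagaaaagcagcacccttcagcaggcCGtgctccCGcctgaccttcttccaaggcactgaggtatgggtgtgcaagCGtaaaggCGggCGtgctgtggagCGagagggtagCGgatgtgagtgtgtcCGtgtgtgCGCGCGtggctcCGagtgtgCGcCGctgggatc

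Of these CpG-rich starts, that of Cxcl12 had like ranks in both populations and that of Cxcl14 had a peak in only 1 of them. Over all protein-coding genes, 92.0% of those with a CpG-rich record start and 35.8% of the others had a peak at any start in either list. Among the chosen genes this was the case for 4 of 5 CpG-rich and for 12 of 54 other genes (22.2%). Of the 59 genes, 36 had more than 1 start, so class and peak need not belong to the same start. Compared within the class without CpG richness, 6 of 12 chosen genes with a start peak ranked more than 20 points lower in GFP+ nuclei, beside 15.6% of all such genes. The 6 include Ackr4, whose peak lay at another start than the one classed.

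Cxcl1, which recruits neutrophils through CXCR2, had ranks of 86.3 in GFP- nuclei (chr5:90890772-90891750, 979 bp) and 63.8 in GFP+ nuclei (chr5:90890860-90891476, 617 bp). Cxcl10, an interferon-induced ligand of CXCR3, lay the other way with 39.9 in GFP- and 49.5 in GFP+ nuclei, a difference under 20 points. Cxcl16, a membrane-bound ligand of CXCR6, had ranks of 75.8 in GFP- nuclei (chr11:70459179-70460213, 1035 bp) and 51.4 in GFP+ nuclei (chr11:70459167-70460195, 1029 bp). That peak also covered a start of Zmynd15. The CXC ligands without a start peak were Cxcl2, Cxcl3, Cxcl5, Cxcl9, Cxcl13, Cxcl15 and Cxcl17.

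Cxcl1 and Cxcl10 are textbook targets of NF-kB, and their start peaks covered sequence with matches to its consensus word. The 250 bases before the RefSeq start of Cxcl1 (chr5:90890995-90891244, plus strand) and Cxcl10 (chr5:92348890-92349139, minus strand) are shown on GRCm38.p6, 5′ to 3′, with matches to searched words in capitals. In Cxcl1 the capitals are 2 overlapping NF-kB matches, on the plus strand from position -71 and on the minus strand from -70, counted back from the RefSeq start. In Cxcl10 they are a match to the interferon response word, which is 2 copies of GAAA with 2 free bases between them, at -213, an NF-kB match at -159, overlapping NF-kB matches at -104 and -103, and the AP-1 word TGANTCA at -74.
Cxcl1: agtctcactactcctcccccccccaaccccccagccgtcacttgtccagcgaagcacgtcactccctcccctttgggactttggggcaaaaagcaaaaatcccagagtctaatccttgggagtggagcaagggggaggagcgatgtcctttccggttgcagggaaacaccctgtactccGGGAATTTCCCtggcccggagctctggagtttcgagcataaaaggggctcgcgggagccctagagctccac
Cxcl10: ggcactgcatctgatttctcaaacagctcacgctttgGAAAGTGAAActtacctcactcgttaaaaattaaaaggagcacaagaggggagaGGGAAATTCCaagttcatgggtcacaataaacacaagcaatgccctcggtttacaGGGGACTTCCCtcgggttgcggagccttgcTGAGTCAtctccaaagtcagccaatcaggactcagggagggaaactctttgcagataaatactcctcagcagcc

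A match is a run of letters and not a measured binding site. Promoters of 300 bases (250 before and 50 after the start) from RefSeq on GRCm38.p6 were at hand for 45 of the 59 genes, and both strands were searched. Ccl2, Ccl7, Ccr10 and Cxcl16, which had start peaks that ranked lower in GFP+ nuclei, were among the genes not searched. An NF-kB match stood in 12 of 45 (26.7%), beside 9.55% of all 27025 promoters: Ackr2, Ccl1, Ccl9, Ccl20, Ccl27a, Ccr1, Ccr3, Ccr6, Cxcl1, Cxcl2, Cxcl3 and Cxcl10. Of these 12, 3 had a start peak (Ccl27a, Cxcl1 and Cxcl10), beside 11 of all 45, a similar share among the genes searched. The ETS word CAGGAAGT stood in 7 of 45 (15.6%, beside 3.86%), including Ccl25 and Cxcr3 among the genes with a start peak. The AP-1 word TGANTCA was found in 8 of 45 (17.8%, beside 8.97%), the interferon response word in 3 of 45 (6.67%, beside 3.99%) and the STAT word TTCNNNGAA in 3 of 45 (6.67%, beside 9.55%). The SOX word CCATTGT stood in 0 of 45 (beside 4.15%), the E-box CAGCTG in 9 of 45 (20%, beside 18.3%) and the GATA word AGATAAG in 4 of 45 (8.89%, beside 3.50%). The TATA word TATAAA, searched on the gene's strand in the 50 bases before the start, stood in 9 of 45 (20%, beside 3.15%), 4 of which had a start peak: Ackr3, Ccl25, Cx3cl1 and Cxcr4.

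Cx3cl1 encodes fractalkine, a ligand that is tethered to the membrane of endothelial and other cells. It had ranks of 76.9 in GFP- nuclei (chr8:94771761-94772719, 959 bp) and 78.8 in GFP+ nuclei (chr8:94771921-94772892, 972 bp). The other member of these small classes, Xcl1, a product of lymphocytes, had no start peak. Of the ligands as a whole, 10 of 37 had a start peak in GFP- nuclei (27.0%, against 61.8% of all genes) and 9 of 37 in GFP+ nuclei (24.3%, against 59.8%). Of those 10, 5 ranked more than 20 points lower in GFP+ nuclei (7.33% of all genes with a start peak).

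Receptors had start peaks at 6 of 22 genes in GFP- nuclei (27.3%, against 61.8% of all genes) and 4 of 22 in GFP+ nuclei (18.2%, against 59.8%). Cxcr4, the receptor of CXCL12, had ranks of 73.7 in GFP- and 65.1 in GFP+ nuclei. Cxcr3, the receptor of CXCL9 and CXCL10 on T cells, was the only gene that ranked more than 20 points higher in GFP+ nuclei, with 28.3 (chrX:101733891-101734180, 290 bp) against 5.15 in GFP- nuclei (chrX:101733877-101734144, 268 bp). Both are small peaks, and their summits lay 213 and 203 bp downstream of the start. Ccr10, a receptor of skin and mucosal lymphocytes, had ranks of 55.0 in GFP- nuclei (chr11:101174694-101175372, 679 bp) and 31.6 in GFP+ nuclei (chr11:101174828-101175200, 373 bp). Their summits lay 308 and 352 bp downstream of the start, also within the gene body of Cntnap1. A larger exon peak beside them had ranks of 91.8 in GFP- and 87.8 in GFP+ nuclei. With a start window of 1000 bp, the difference at Ccr10 was -4.01 points.

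No start peak was found at Ccr1, Ccr2, Ccr3, Ccr4, Ccr6, Ccr7, Ccr8, Ccr9, Cxcr1, Cxcr2, Cxcr5, Cxcr6, Cx3cr1 or Xcr1. These are receptors of leukocytes, and Cx3cr1, which marks monocytes and macrophages, was without a start peak as were most macrophage markers.

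Among the 4 atypical receptors, Ackr3, a scavenger of CXCL12, had ranks of 82.8 in GFP- nuclei (chr1:90203643-90204651, 1009 bp) and 81.7 in GFP+ nuclei (chr1:90203372-90204625, 1254 bp). Ackr4, which scavenges CCL19, CCL21 and CCL25, had a GFP- peak of 531 bp with rank 59.2 (chr9:104102098-104102628) and none in GFP+ nuclei. That peak stood at a start of a transcript within the gene and also within the gene body of Acad11. Ackr4 had no start peak when only starts of protein-coding transcripts counted. Ackr1, known from venular endothelium, and Ackr2, known from lymphatic endothelium, had no start peak in either list.

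Genes that act with the family were examined beside it. They were 61 genes for chemokine-like proteins, receptor signalling, presentation and processing, and induction. Of these, 53 had a start peak in GFP- nuclei (86.9%, against 61.8% of all genes) and 52 in GFP+ nuclei (85.2%, against 59.8%). 3 of the 55 with a start peak ranked more than 20 points lower in GFP+ nuclei (5.45%, against 7.33% of all genes): Cmklr1, the chemerin receptor, with 82.0 and 31.3; Grk3, a receptor kinase, with 65.0 and 39.5; and Mmp2, a protease that cleaves chemokines, with 75.6 and no GFP+ peak. None ranked more than 20 points higher (1.94% of all genes). All 16 genes of induction, among them Nfkb1, Rela and Irf1, had start peaks in both lists. Ccrl2, an atypical chemerin-binding receptor, had 87.6 and 85.1, and Pf4, a platelet CXC chemokine outside the symbol rule, 61.4 and 63.0. The leukocyte signalling genes Rac2, Dock2 and Rgs1, and also Ppbp, Ccr1l1 and Mmp9, had no start peak in either list. Other signalling genes did: Pik3cg and Plcb2 had one only in GFP+ nuclei, at ranks 0.56 and 14.8, and Pik3r5 had 75.3 and 74.6. Of the 61 genes, 2 had a start peak only in GFP+ nuclei (0.915% of all genes) and 3 only in GFP- nuclei (2.95%).

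Distal peaks were examined next. A distal peak has its summit more than 1000 bp from every annotated transcript start and outside exons, and was given to the protein-coding gene with the nearest start, which need not be the gene it acts on. The 59 genes had 139 distal GFP- peaks and 86 distal GFP+ peaks. Of the GFP- peaks, 70 of 139 overlapped no GFP+ peak (50.4%, against 36% over all genes). Of the GFP+ peaks, 16 of 86 overlapped no GFP- peak (18.6%, against 16.4%). Distal peaks were present at 36 genes in GFP- nuclei (61.0%, against 53.3% of all genes) and at 27 in GFP+ nuclei (45.8%, against 49.6%), which is 2.36 and 1.46 per gene, beside 2.58 and 2.02 over all genes. They included 24 of the 43 genes without a start peak. The remaining 19 had neither a start nor a distal peak: Ackr1, Ccl3, Ccl4, Ccl6, Ccl8, Ccl12, Ccl19, Ccl21a, Ccl21b, Ccl24, Ccl26, Ccl27b, Ccr2, Ccr6, Cxcl3, Cxcl9, Cxcr1, Cxcr2 and Xcr1.

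Overlapping distal peaks of the lists were merged into 155 regions, and a region took the highest rank of any peak of each list that overlapped it. 69 regions had peaks from both, 70 had GFP- peaks alone and 16 had GFP+ peaks alone. 63 of the 155 ranked more than 20 points lower in GFP+ nuclei (40.6%, against 27.3% of all 63388 distal regions) and 18 more than 20 points higher (11.6%, against 8.72%). The median difference was -12.4 points, beside -5.83 points over all regions. In 2 regions, at Xcl1 and Cxcl12, the GFP- rank came from a peak within 1000 bp of a start. With ranks from distal peaks alone, 68 regions had both, 62 ranked more than 20 points lower (40%, against 27.1%) and 19 higher (12.3%, against 9.20%).

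**Figure D3:**
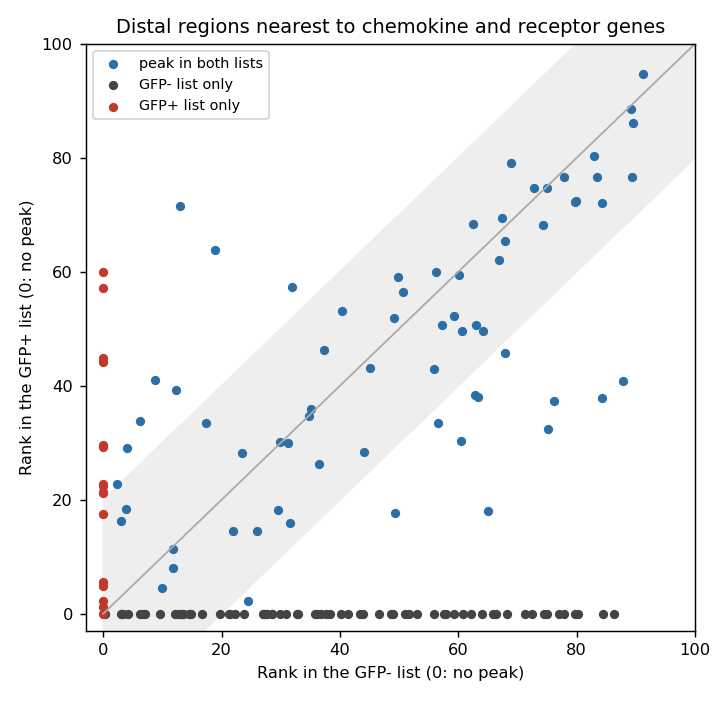
Rank of the 155 distal regions nearest to chemokine and receptor genes in the GFP- list (horizontal axis) and the GFP+ list (vertical axis), with 0 where a list has no peak and the band of 20 points around equal ranks in light grey. Regions found only in GFP- nuclei (70, dark points on the horizontal axis) reach rank 86.4, and those found only in GFP+ nuclei (16, red points on the vertical axis) reach rank 59.9.

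The distal peaks were most numerous at Ackr3 and Cxcl12. Ackr3 had 22 in GFP- and 16 in GFP+ nuclei, Cxcl12 had 19 and 15, and Cxcr4 had 10 and 4. Ccr7, a receptor that guides cells to lymph nodes, had 7 and 4, Xcl1 had 6 and 5, Cxcl14 had 7 and 3, Ackr2 had 7 and 2, and Cx3cl1 had 3 and 5. Ackr3 and Cxcl12 together held 41 of the 139 GFP- peaks (29.5%) and 31 of the 86 GFP+ peaks (36.05%). A gene far from other starts collects more peaks under this assignment, and the Cxcl12 peaks extended to 269.4 kb downstream of its start.

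At Ackr3 the strongest distal peaks were shared. The highest-ranked distal peak of the family was a GFP+ peak of 2988 bp inside the gene (chr1:90206386-90209373) with rank 94.7. The GFP- list had a peak of rank 91.2 within it (chr1:90207749-90209043), and both summits lay 4.6 kb downstream of the start. At 34.3 kb downstream stood a GFP+ peak of rank 88.5 that overlapped a GFP- peak of rank 89.2. Of the 24 regions of Ackr3, 13 had peaks in both populations, 8 were GFP--only and 3 GFP+-only. Cxcl12 had 23 regions, of which 11 were shared, 8 were GFP--only and 4 GFP+-only. Its farthest strong peaks were shared as well, such as the one 222.1 kb downstream with ranks of 83.0 in GFP- and 80.4 in GFP+ nuclei.

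**Figure D4:**
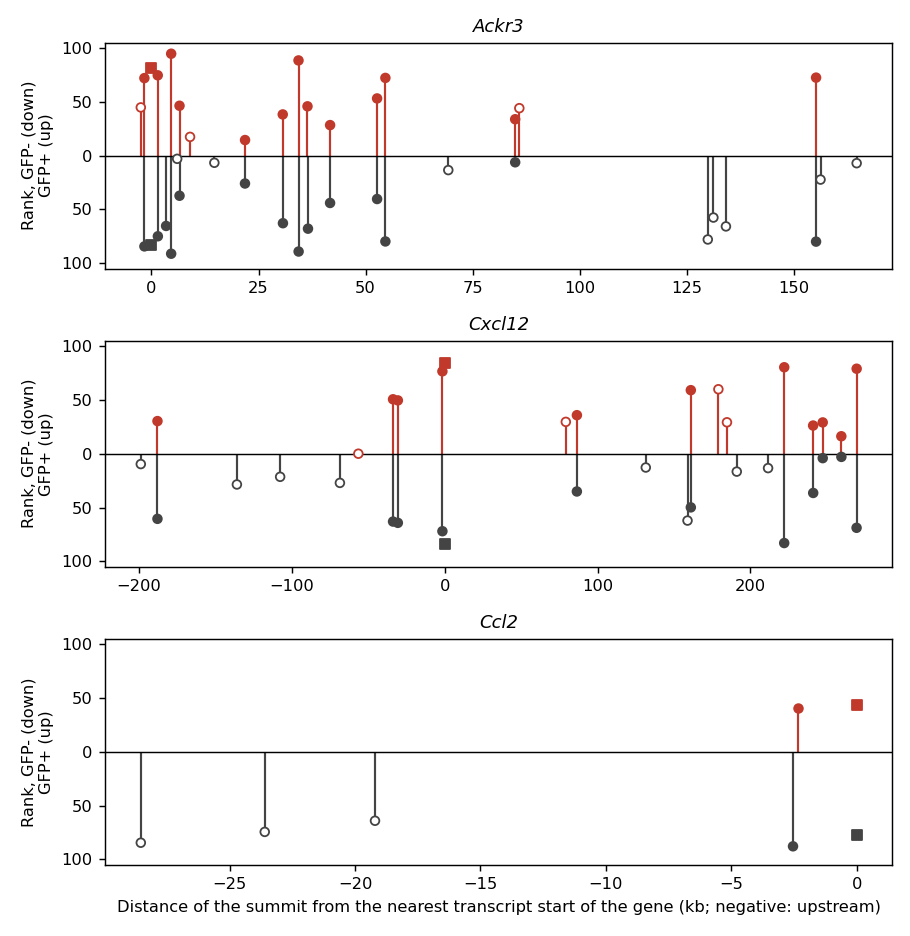
Distal peaks of Ackr3, Cxcl12 and Ccl2 by the distance of their summit from the nearest transcript start of the gene, in kb, with the rank of GFP+ peaks upward in red and that of GFP- peaks downward in grey; filled circles overlap a peak of the other list, open circles do not, and squares are the start peaks. Most of the high stems of Ackr3 and Cxcl12 have a partner in the other direction, whereas 3 of the 4 GFP- peaks of Ccl2 do not.

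At Ccl2, all 4 of its distal regions ranked more than 20 points lower in GFP+ nuclei (27.3% of all distal regions), with a median difference of -69.2 points. GFP- peaks of rank 84.5, 74.4 and 64.1 stood 28.5, 23.6 and 19.2 kb upstream without a GFP+ partner. At 2.5 kb upstream a GFP- peak of rank 87.8 overlapped a GFP+ peak of rank 40.8. Cxcl14 had 7 regions and Ackr2 had 7, all of which ranked lower in GFP+ nuclei, 5 of them in each case by more than 20 points. Of all 63388 distal regions, 42782 ranked lower in GFP+ nuclei. The opposite was seen at Cxcl17, a mucosal chemokine without a start peak. All 3 of its regions ranked more than 20 points higher in GFP+ nuclei (8.72% of all distal regions). Their GFP- and GFP+ ranks were 12.3 and 39.2 (11.7 kb upstream), 12.9 and 71.6 (20.5 kb) and 18.97 and 63.9 (GFP+ summit 23.5 kb upstream). At Cx3cl1, 2 of 4 regions ranked more than 20 points higher and 1 more than 20 points lower in GFP+ nuclei.

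The highest distal peaks found only in GFP- nuclei were nearest to Ccl1, a T cell product (chr11:82171351-82172094, rank 86.4), Ccl2 (chr11:82006746-82007410, 84.5), Ackr2 (chr9:121903525-121904414, 80.2), Ackr4 (chr9:104130054-104130613, 79.8) and Ackr3 (chr1:90333608-90334373, 78.0). Those found only in GFP+ nuclei reached lower ranks: Cxcl12 (chr6:117347321-117347841, 59.9), Cxcr5 (chr9:44537664-44538339, 57.1), Ackr3 (chr1:90201302-90201828, 44.8; chr1:90289524-90290069, 44.1) and Cxcl12 (chr6:117247622-117247894, 29.6). Cxcr5 is a receptor of B cells, and its peak lay within the gene record.

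The 300 bases around the summit are shown on mm10, plus strand, for the highest shared Ackr3 peak (chr1:90208454-90208753), the highest GFP+-only peak, at Cxcl12 (chr6:117347434-117347733), and the highest GFP--only peaks of Ccl2 (chr11:82006875-82007174) and Ccl1 (chr11:82171806-82172105), because these carry the shared and the unshared pattern. Capitals mark matches to the searched words. They are 2 copies of the E-box CAGCTG in Ackr3, 1 match to TTCNNNGAA in Cxcl12 and 1 E-box in Ccl1. In Ccl2 they are 2 NF-kB matches on the same bases, 1 on each strand, and 1 AP-1 word.
Ackr3: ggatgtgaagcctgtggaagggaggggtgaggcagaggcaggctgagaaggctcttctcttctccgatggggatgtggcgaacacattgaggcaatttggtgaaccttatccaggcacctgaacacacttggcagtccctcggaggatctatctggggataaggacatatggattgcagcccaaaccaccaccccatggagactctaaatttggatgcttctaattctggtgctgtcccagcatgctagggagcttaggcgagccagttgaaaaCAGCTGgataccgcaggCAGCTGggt
Cxcl12: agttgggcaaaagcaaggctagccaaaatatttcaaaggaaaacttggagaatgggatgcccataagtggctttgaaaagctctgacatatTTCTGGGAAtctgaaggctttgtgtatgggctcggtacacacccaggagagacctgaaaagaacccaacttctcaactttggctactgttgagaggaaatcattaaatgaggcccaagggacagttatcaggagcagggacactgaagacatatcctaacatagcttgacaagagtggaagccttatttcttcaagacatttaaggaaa
Ccl2: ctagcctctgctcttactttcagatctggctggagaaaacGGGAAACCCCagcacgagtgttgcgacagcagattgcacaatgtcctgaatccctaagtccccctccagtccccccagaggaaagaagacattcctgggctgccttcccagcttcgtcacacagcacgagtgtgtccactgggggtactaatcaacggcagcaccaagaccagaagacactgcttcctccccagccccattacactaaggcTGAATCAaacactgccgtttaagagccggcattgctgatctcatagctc
Ccl1: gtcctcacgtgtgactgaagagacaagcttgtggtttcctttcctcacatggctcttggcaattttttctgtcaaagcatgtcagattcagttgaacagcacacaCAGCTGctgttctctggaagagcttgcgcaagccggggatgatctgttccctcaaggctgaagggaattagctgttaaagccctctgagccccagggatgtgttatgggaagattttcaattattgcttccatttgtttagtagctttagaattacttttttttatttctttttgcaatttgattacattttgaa

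The same words were counted on both strands in the 300 bases around all distal summits. An NF-kB match was present in 13 of the 70 GFP- peaks of the family without a GFP+ partner (18.6%), beside 6.23% of all 20163 such peaks, and in 6 of the 69 shared GFP- peaks (8.70%, beside 6.35%). TGANTCA stood in 14 of the 70 (20%, beside 18.6%) and in 17 of the 69 shared ones (24.6%, beside 12.6%). CAGCTG, the E-box bound by TCF21 and related factors, was found in 21 of the 70 (30%, beside 34.2%). In the 16 GFP+ peaks without a partner, TGANTCA was present in 4 (25%, beside 12.3%), an NF-kB match in 1 (6.25%, beside 7.18%) and the ETS word CAGGAAGT in 0 (beside 7.47%). The ETS word stood in 6 of the 70 shared GFP+ peaks (8.57%, beside 3.86%), in 6 of the 69 shared GFP- peaks (8.70%, beside 3.63%) and in 6 of the 70 GFP- peaks without a partner (8.57%, beside 4.31%).

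Many of the genes lie in clusters. Members less than 500 kb apart formed 10 clusters, which were extended by 5 kb at either end and compared with the chromosomes by the number of peaks of any kind per Mb (29.9 in the GFP- and 24.7 in the GFP+ list). In 4 of the 10 clusters GFP- peaks outnumbered GFP+ peaks. Ccl1, Ccl2, Ccl7, Ccl8, Ccl11 and Ccl12 (chr11:82030571-82310690) held 14 GFP- and 5 GFP+ peaks, or 49.98 and 17.8 per Mb. Ccl3, Ccl4, Ccl5, Ccl6 and Ccl9 (chr11:83520778-83669683) held 7 and 3, or 47.0 and 20.1 per Mb. The neutrophil-attracting ligands Cxcl1, Cxcl2, Cxcl3 and Cxcl5 with Cxcl15 (chr5:90754360-90910938) held 13 and 6, or 83.0 and 38.3 per Mb. The receptor cluster that includes Ccr1, Ccr2, Ccr3, Ccr9, Cxcr6 and Xcr1 on chromosome 9 held 12 and 5, or 25.0 and 10.4 per Mb.

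**Figure D5:**
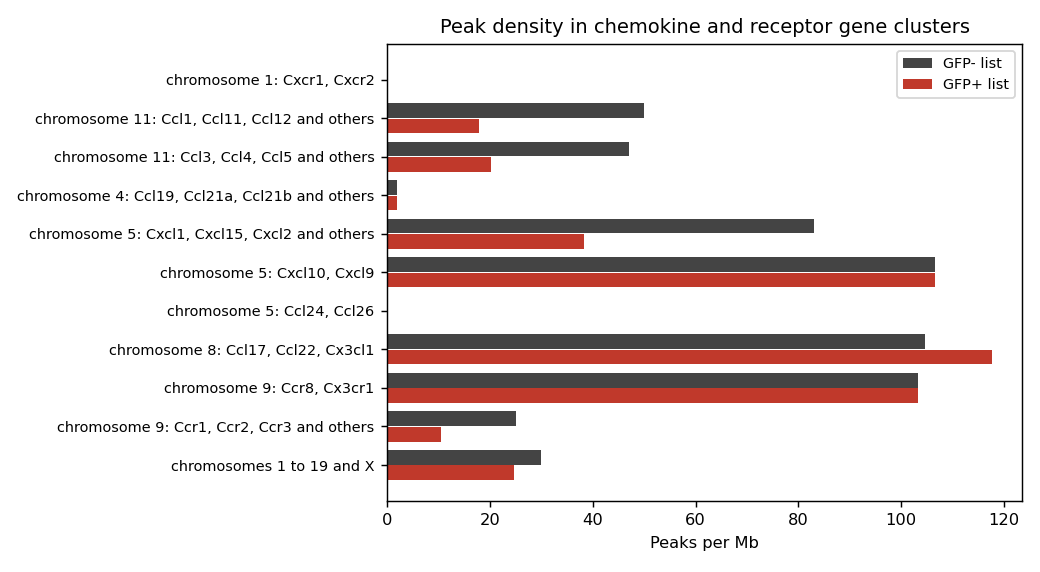
Number of peaks per Mb in 10 clusters of chemokine and receptor genes and over chromosomes 1 to 19 and X, with bars for the GFP- (grey) and GFP+ (red) lists. The bars are longer for GFP- nuclei in 4 clusters, alike in the clusters of Cxcl9 with Cxcl10 and Ccr8 with Cx3cr1, and longer for GFP+ nuclei in that of Ccl17, Ccl22 and Cx3cl1.

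In the other 6 clusters they did not. The interferon-induced pair Cxcl9 and Cxcl10 had 4 peaks in each list, and Ccl17, Ccl22 and Cx3cl1 had 8 in GFP- and 9 in GFP+ nuclei. The region of Ccr8 and Cx3cr1 had 21 in each, but it spans 7 protein-coding genes. Cx3cr1 was nearest to 2 distal GFP- peaks and 1 distal GFP+ peak, and Ccr8 to 1 in each list. Cxcr1 with Cxcr2, and Ccl24 with Ccl26, had none. The cluster of Ccl19, Ccl21a, Ccl21b, Ccl27a and Ccl27b on chromosome 4, whose start sequences are repeated, had 2 in each list over 1014.5 kb.

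Of the 8 genes whose start ranks differed by more than 20 points, Ackr4, Ccl2, Ccl7, Cxcl14 and Cxcr3 kept that difference in every alternative setting in which they had a start peak. Cxcl1 and Cxcl16 kept it in 7 of 8 alternative settings and Ccr10 in 5 of 8. These counts include repeats of the same value. Restriction to genes with a peak in both lists cannot change the value of a single gene. At Ccl2, Cxcl1 and Cxcl16 the value was also identical with the gene record, with protein-coding starts and with the window of 1000 bp. Markers of fibroblasts and of pericytes and smooth muscle were lower in GFP+ nuclei together with Ccl2, Ccl7 and Cxcl14 (3 of 5 markers of each list by more than 20 points), and their part in those ranks was not tested.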

How the data were processed

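ATAC-Seq libraries of 2 GFP- and 2 GFP+ samples of heart nuclei were grouped by their labels. The authors trimmed reads with fastp, mapped them to mm10 (Bowtie2 2.3.5.1 in the submitters' processing notes, another version in the paper), filtered by mapping quality (SAMtools 1.19), marked and dropped duplicates (Picard) and brought all libraries down to one depth before Genrich called peaks, on both samples of a population together and without mitochondrial reads. The area that was deposited for each peak adds up its signal over the peak's length. The deposited score has an upper limit and was not used. The deposited -log10 p-values belong to the summits, and the q-value column holds no values. Even depth does not make the lists equally long, because that also reflects how much of a library falls into peaks. Read counts per sample are not analysed here, so depth per peak and replicate error are unknown.

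Genes and starts came from GENCODE M21 on GRCm38, and sequences from GRCm38.p6 and RefSeq. Overlap means at least 1 bp. Calculations used Python 3.11.15, pandas 2.3.3, numpy 2.4.6 and numba 0.67.0, with figures from matplotlib 3.10.9, and were tested on simulated data. The genes of the family are named, except for 1 gene that is counted but not reported here. Positions are given for start peaks in only 1 list, rank differences over 20 points or ranks of 75 and above, and distal peaks for the 8 genes with most and the 5 highest unshared peaks in each direction. Further distal peaks of Ackr3, Cxcl12, Ccl2 and Cxcl17 were picked after their values were seen. The genes and lists were chosen with earlier results of these data known, and the E-box and GATA words were added after sequences had been seen. Alternatives changed the starts that count, the start window, the threshold on peaks, the measure for ranking, the overlap, and the distance and assignment of distal peaks. No p-value is given.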

Additional observations from a re-analysis of the deposited data

How the results depend on the processing

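Of 69 recomputed values over the whole family, 14 moved. A count moved when it changed by more than 1.5 times, or to or from 0. A shared percentage moved when it left the binomial interval of its reported value. The median moved when it left -33.8 to 0.48 points, an interval from the spread of the genes. Both intervals take peaks or genes as units, not samples, and that of the median is wide. Staying inside them therefore says little. Only the median could be called reversed, by a change of sign. The median start rank difference, -13.1 points, kept its sign but ranged from -27.8 (summit -log10 p of at least 5) to -8.58 points (window of 1000 bp, or only genes with peaks in both lists). Ranks of distal regions from distal peaks alone, a setting chosen after seeing the data, changed no count by over 1.5 times. The number of genes with a start peak only in GFP- nuclei, 3 as reported, was 1 when only the 5′ end of the gene record counted, 1 with starts of protein-coding transcripts alone (Ackr4 then had no start peak), and 5 with peaks whose summit had a -log10 p of at least 5. At that threshold 0 genes, in place of 1, ranked more than 20 points higher in GFP+ nuclei, and the distal peaks numbered 74 in GFP- and 41 in GFP+ nuclei. With the GFP- list shortened to the length of the other, 1 gene had a start peak only in GFP+ nuclei (1.56% of all genes), 4 of 15 ranked more than 20 points lower (5.34%) and 2 of 15 higher (3.31%), and 67.4% of the distal GFP+ peaks were shared (74.5% over all genes). An overlap of at least 50% of both peaks left 69.8% of them shared (70.3% over all genes). With summits more than 5000 bp from any start, 57 distal GFP+ peaks remained. Assignment to the nearest gene of any type left 66 GFP- and 38 GFP+ peaks, fewer by construction since more genes compete. Of 118 single-gene values, some of which could not change by construction, 7 moved, which means by 20 points or more. Among these, with area per bp, Ccl27a was at 5.58, Ccr10 at -3.19 and Ccl2 at -55.3 points. The cause of the other changes was not tested. No paired analysis was possible because each list was called from both samples together. For the same reason no sample could be left out.

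Without values per sample, no rank difference can be set against replicate error. Ranks compare places within lists, not amounts of open chromatin, and the GFP- list is longer. Assignment by distance does not show which gene a distal region acts on.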
